A study of Rattus norvegicus with 24 samples.

Results

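Aquaporins are membrane channels that pass water, and some of them also pass glycerol, ammonia or hydrogen peroxide. The genes described here are Aqp1, Aqp3, Aqp4, Aqp7, Aqp8 and Aqp11, which were chosen by their gene symbol on the array with earlier results on diet in these samples known. All 6 have a probe, 1 for each gene, among 12 aquaporin symbols on an array of 22523 probes. Of the 6, 5 were detected often enough to be tested among 10193 probes. The choice rested on the differences between diets, so those differences are given for the members as a description and are not tested. Counts of members past the threshold in a diet comparison stand beside the share of all probes past it, and nothing is read from them. The IUGR comparisons share their groups with the diet comparisons and are given with tests, as are the relations between samples of the same group. The interaction is made of the diet differences and is given as a description.

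Transcripts were measured with Illumina bead arrays in epithelial cells shaken free from the colon of Sprague Dawley rats aged 8 months, after incubation with calcium chelators. The IUGR rats on high-fat diet (RHFD) are 3 samples, the control rats on high-fat diet (CHFD) 5, the IUGR rats on chow (RND) 6 and the control rats on chow (CND) 6. IUGR stands for intra-uterine growth retardation, and control rats are those whose birth status is given as control. Each group has 6 arrays, 3 on each of 2 chips, and 4 title numbers (RHFD 21B, RHFD 25B, RHFD 3A and CHFD 10B) stand on 2 arrays each, which are counted here as 1 sample. How growth retardation was brought about, the make-up and length of the diets and the sex of the rats are not given in the labels. The labels name proximal and distal colon together, and they do not say that samples are separate animals, so p-values measure the spread between these samples only.

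In the colon, water follows the salt that surface cells absorb, and channels in the cell membranes let it through. Aqp8 is a channel of the absorptive surface cells of the colon and also passes ammonia and hydrogen peroxide. Aqp3 and Aqp7 belong to the aquaglyceroporins, which pass glycerol as well as water. Aqp3 lies on the basolateral side of epithelial cells, and Aqp7 is best known for releasing glycerol from fat cells. Aqp1 is the water channel of red cells and of many capillary walls, Aqp4 that of glial end-feet, and Aqp11 an unusual member found in the endoplasmic reticulum.

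The arrays had median signals of 92 to 112 and mean signals of 309 to 571, and 8303 to 9872 probes were detected on each. The epithelial label was checked against marker genes, and 8 of 8 epithelial markers on the array, among them Epcam, Cdh1 and Vil1, were detected on all 24 arrays. No probe for the enteric glia markers Gfap, S100b and Sox10 was detected on any array, and no smooth muscle or fibroblast marker passed the detection filter. Markers of T cells, macrophages and red cells were present, with Cd3g, Gzma, C1qb, Cd14, Hbb and Hba-a1 each detected on 24 arrays. Other members of these lists were detected on fewer arrays. The samples were therefore not free of markers of other cells.

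Levels below are log2 intensities after background correction and quantile normalisation. A probe was called where its adjusted p, by limma with Benjamini-Hochberg adjustment over all tested probes, was under 0.05.

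Aqp8 was the member that varied most. Its level was 6.07 in RHFD 21B, 8.32 in RHFD 25B and 5.15 in RHFD 3A. In CHFD it was 6.12 in 10B, 7.14 in 4A, 9.48 in 22B, 4.81 in 28B and 6.21 in 8B. The RND samples had a lowest, median and highest level of 7.60, 9.26 and 11.23, and the CND samples 9.01, 10.75 and 12.56. Samples on high-fat diet were mostly low and those on chow mostly high, with CHFD 22B and RHFD 25B standing above the rest of their groups. Without any correction, the deposited signals had a median of 134.5 on RHFD arrays, 154 on CHFD arrays, 692.5 on RND arrays and 1556.5 on CND arrays, and the probe was detected on 24 of 24 arrays.

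**Figure D1:**
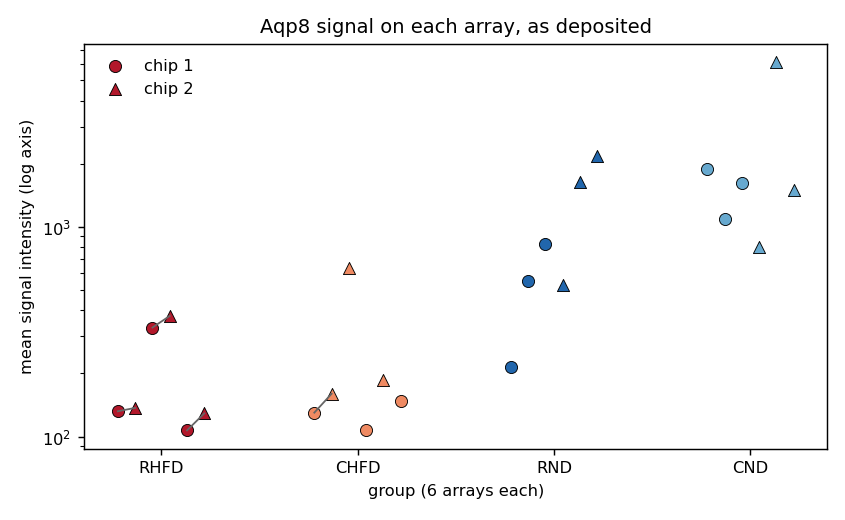
Deposited Aqp8 signal on each of the 24 arrays (log axis, arbitrary units), by group, with circles for chip 1 and triangles for chip 2. Grey lines join arrays that share a title number. The signals run from 107 on an RHFD array to 6082 on a CND array.

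In control rats the group means were 6.75 ± 1.74 in CHFD and 10.61 ± 1.19 in CND (SD, n = 5 and 6). The log2 difference was -3.87 (SE 0.70, 95% interval -5.33 to -2.42), that is 14.7-fold lower in CHFD with an interval of 5.36 to 40.1. The groups overlapped in 1 sample, CHFD 22B, and the other 4 of 5 CHFD samples lay below all CND samples. Without background correction, and on the authors' normalized intensities, the log2 difference was -2.99, and the lowest CHFD sample, 28B, had a signal of 108, close to background. The difference was -4.74 on chip 1 alone, -3.19 on chip 2 alone and -4.50 without CHFD 22B. Past the threshold here were 1 of 5 tested members, Aqp8, and 1.3% of all tested probes, in a comparison on which the choice of members rested.

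In IUGR rats the means were 6.51 ± 1.63 in RHFD and 9.25 ± 1.37 in RND (SD, n = 3 and 6). The log2 difference was -2.73 (SE 0.80, interval -4.38 to -1.08), or 6.64-fold lower in RHFD with an interval of 2.11 to 20.8. Of the RHFD samples, 2 of 3 lay below all RND samples. Without background correction, and on the authors' normalized intensities, the log2 difference was -1.92. It was -2.05 without RHFD 3A, whose arrays had signals of 107 and 129, close to background, and -3.63 without RHFD 25B. Past the threshold by limma were 0 of 5 tested members and 0.883% of all probes, and 2 of 5 members and 974 of the 10193 probes had an unadjusted p under 0.05. The choice of members rested on this comparison too.

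Averaged over birth status, Aqp8 differed between high-fat diet and chow by -3.30 (SE 0.53, interval -4.40 to -2.20), 9.86-fold lower on high-fat diet. Without background correction, and on the authors' normalized intensities, the log2 difference was -2.45. Past the threshold were 1 of 5 tested members, Aqp8, and 4.28% of all probes, again in a comparison used in the choice. Samples hold many cells, so fewer cells with Aqp8 and less Aqp8 RNA per cell cannot be told apart.

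The effect of birth status on Aqp8 was tested on each diet. These comparisons use the same groups as the diet comparisons behind the choice of members, so they are not independent of that choice. On chow, the mean was 9.25 in RND and 10.61 in CND, and 3 of 6 RND samples lay below all CND samples. The difference of -1.37 (SE 0.68, interval -2.76 to 0.02) did not pass the threshold (limma adjusted p = 0.417). On high-fat diet the difference RHFD minus CHFD was -0.23 (SE 0.83, limma adjusted p = 1), and it was 0.73 on chip 1 alone. Averaged over diet it was -0.80 (SE 0.53, limma adjusted p = 1). The interaction, the diet difference in IUGR rats minus that in control rats, was 1.14 (SE 1.07, interval -1.05 to 3.34). It is made of both diet differences on which the choice rested, so it is a description and no conclusion is drawn from it.

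Aqp11 levels lay between 9.44 and 10.88 over all samples. The RHFD samples had 9.93 in 21B, 9.57 in 25B and 9.76 in 3A, and the CHFD samples ran from 9.44 to 9.76. In RND its lowest, median and highest levels were 9.66, 10.21 and 10.88, and in CND 9.46, 9.89 and 10.08. RND stood highest, with 4 of 6 RND samples above all CND samples. The difference RND minus CND was 0.44 (SE 0.15, interval 0.13 to 0.76) and did not pass (limma adjusted p = 0.263). Between diets Aqp11 differed by -0.54 (SE 0.18) in IUGR rats and -0.20 (SE 0.16) in control rats. On average over birth status it differed by -0.37 (SE 0.12, interval -0.62 to -0.12), and it was called in none of these comparisons.

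Aqp3, the basolateral glycerol and water channel, was detected on all 24 arrays. Its levels were 5.75 in RHFD 21B, 6.81 in RHFD 25B and 5.89 in RHFD 3A, and ran from 5.78 to 7.24 in CHFD. In RND the lowest, median and highest were 5.78, 6.62 and 7.62, and in CND 5.62, 6.77 and 7.46. All 4 groups overlapped. The diet difference was -0.49 (SE 0.39) in IUGR rats and -0.05 (SE 0.34) in control rats, and RND minus CND was 0.05 (SE 0.33, limma adjusted p = 0.968).

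Aqp7, the channel best known from fat cells, lay close to background. It was detected on 2 of 6 RHFD arrays, 1 of 6 CHFD arrays, 5 of 6 RND arrays and 4 of 6 CND arrays. The RHFD samples had 4.58 in 21B, 4.61 in 25B and 4.67 in 3A, and the CHFD samples 4.46 to 5.47. In RND the lowest, median and highest were 4.77, 5.05 and 5.82, and in CND 4.46, 5.52 and 6.34. The RHFD samples all lay below all RND samples, while CHFD and CND overlapped. The diet difference was -0.50 (SE 0.31) in IUGR rats, -0.65 (SE 0.27) in control rats and -0.57 (SE 0.21) on average, and it was called in none of these. Most high-fat arrays had no detected Aqp7 signal, and without background correction the average diet difference was -0.21.

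Aqp1, the channel of red cells and capillaries, was detected on 23 of 24 arrays. The RHFD samples had 6.64 in 21B, 6.96 in 25B and 6.66 in 3A. In CHFD the level was 7.17 in 10B, 6.99 in 4A, 4.53 in 22B, 7.49 in 28B and 6.39 in 8B, so that 22B stood far below the rest. In RND the lowest, median and highest were 6.21, 6.79 and 7.83, and in CND 5.30, 5.89 and 6.94. RND minus CND was 0.96 (SE 0.36, interval 0.21 to 1.71), with 2 of 6 RND samples above all CND samples, and it did not pass (limma adjusted p = 0.298). The diet difference was -0.17 (SE 0.43) in IUGR rats and 0.56 (SE 0.38) in control rats. Without CHFD 22B, in which Aqp1 was not detected, the difference in control rats was 1.05.

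Aqp4 was detected on 0 of 24 arrays, with signals of 82 to 115, and was not tested. Among the aquaporins outside the set, Mip, Aqp2, Aqp5, Aqp6 and Aqp12a were also detected on 0 of 24 arrays. Aqp9, a glycerol channel of liver and white blood cells, was detected on 24 of 24, with levels of 6.91 to 7.85, and was not called in any comparison.

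**Figure D2:**
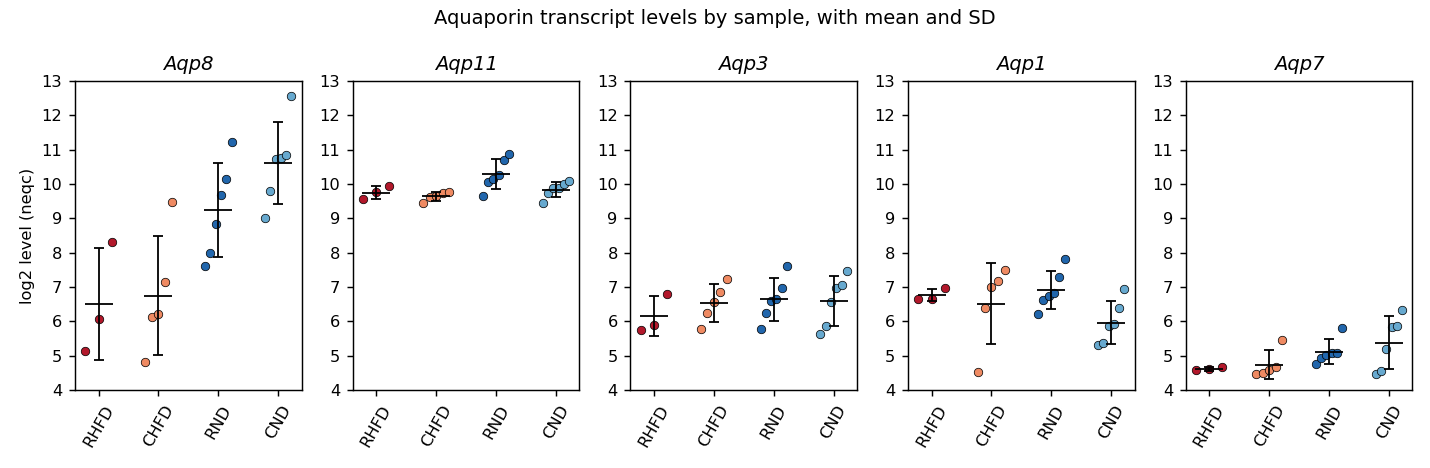
Levels of the 5 tested members in each sample (log2 after background correction), with the mean and SD of each group, from RHFD on the left to CND on the right. Aqp8 spans 4.81 to 12.56, and Aqp11 spans 9.44 to 10.88.

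For birth status, 0 of 5 members were called on chow, against 0% of all probes, and 2 of 5 (Aqp1 and Aqp11) had an unadjusted p under 0.05 by limma, as did 1235 of all tested probes. On high-fat diet 0 of 5 were called, against 0.00981% of all probes, and 0 of 5 had an unadjusted p under 0.05. Averaged over diet 0 of 5 were called, again against 0.00981%, with 2 of 5 members and 433 of all tested probes under 0.05 unadjusted. The interaction, given as a description, called 0 of 5, against 0% of all probes. Under 0.05 unadjusted were 0 of 5 members and 413 of all tested probes.

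**Figure D3:**
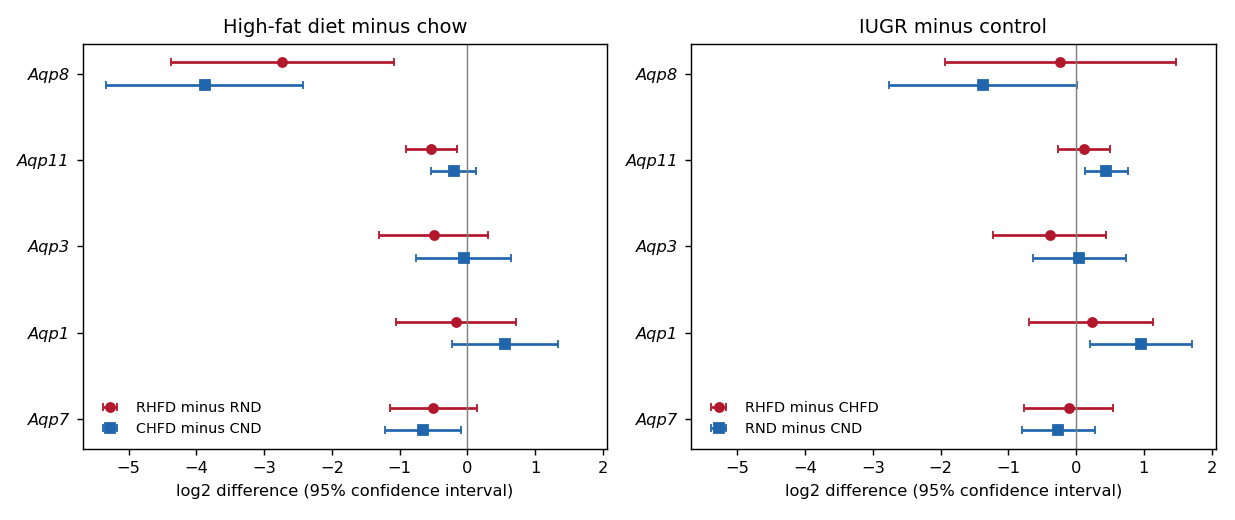
Log2 differences of the tested members with 95% confidence intervals, for high-fat diet minus chow (left) and IUGR minus control (right). Red circles are RHFD minus RND (left) and RHFD minus CHFD (right), and blue squares are CHFD minus CND (left) and RND minus CND (right). Aqp8 lies at -2.73 and -3.87 on the left, farther from 0 than the other members.

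Samples of the same group also differed in Aqp8. After group and chip were removed, its SD was 1.36, rank 33 of 10193 probes, against a median SD of 0.28 over all probes. Arrays that share a title number differed by 0.03 in RHFD 21B, -0.23 in RHFD 25B, 0.66 in RHFD 3A and 0.03 in CHFD 10B, the array on chip 2 minus that on chip 1. All 4 of these differences were smaller than that SD.

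These deviations from the group give a view of the members that does not use the differences between groups. Over the 20 samples, Aqp3 followed Aqp8, with r = 0.83 and rho = 0.81 (permutation p = 5e-05 and 0.00014, adjusted 5e-04 and 0.0014 over 10 pairs of members). Without CHFD 22B and CND 32B, the samples farthest out in Aqp8, r was 0.79. Among the 10192 other probes, Aqp3 ranked 4 by its r with Aqp8. In CND, sample 36B was highest and 32B lowest in both genes.

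For Aqp7 and Aqp8 r was 0.56 and rho 0.48 (permutation p = 0.0111 and 0.034, adjusted 0.055 and 0.13). It dropped to 0.35 without the same samples, so it rests in part on them. Aqp7 and Aqp3, neighbours on chromosome 5 in the RefSeq order of the GRCr8 assembly, had r = 0.61 and rho = 0.50 (permutation p = 0.0165 and 0.039, adjusted 0.055 and 0.13), and r was 0.39 without CND 36B and CND 32B. Aqp11 and Aqp1 had r of -0.29 and -0.27 with Aqp8, neither passing the threshold (permutation, adjusted p = 0.412 for both). No pair other than Aqp8 with Aqp3 passed after adjustment.

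**Figure D4:**
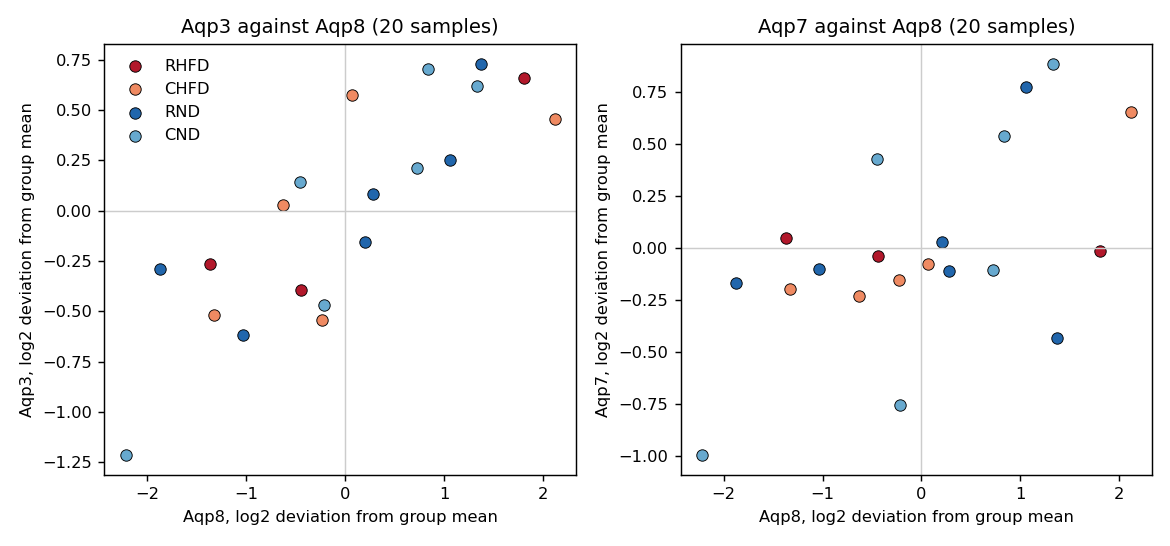
Deviation of Aqp3 (left) and Aqp7 (right) against that of Aqp8 in each of the 20 samples, in log2 units after group and chip were removed. Points are coloured by group. The r is 0.83 for Aqp3 and 0.56 for Aqp7.

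The promoters of Aqp8 and Aqp3 are shown because these members varied together, from 250 bases before to 50 after the RefSeq start on GRCr8. Of the 6 members, 4 have a promoter in that table. Capitals mark motif matches, which are the E-box in Aqp8 and, in Aqp3, the TATA box and a Cdx core on the opposite strand.
Aqp8, chr1:187424193-187424492, plus strand: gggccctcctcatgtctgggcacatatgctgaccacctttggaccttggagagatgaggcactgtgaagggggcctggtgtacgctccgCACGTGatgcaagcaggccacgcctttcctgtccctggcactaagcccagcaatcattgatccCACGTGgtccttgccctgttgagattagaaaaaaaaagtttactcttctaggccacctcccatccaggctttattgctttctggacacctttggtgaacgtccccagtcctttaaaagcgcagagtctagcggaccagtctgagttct
Aqp3, chr5:61040634-61040933, minus strand: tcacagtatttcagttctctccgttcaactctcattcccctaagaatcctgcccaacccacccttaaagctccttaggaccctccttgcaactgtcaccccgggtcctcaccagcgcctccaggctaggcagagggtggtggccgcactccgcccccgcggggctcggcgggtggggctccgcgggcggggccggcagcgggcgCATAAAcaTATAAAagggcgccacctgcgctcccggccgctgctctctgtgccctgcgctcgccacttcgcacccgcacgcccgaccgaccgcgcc

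The E-box CACGTG, which reads the same on both strands, occurs 2 times in the Aqp8 window, 161 and 98 bases before the start. At least 1 copy is in 6.4% of 33469 promoters of this length, and at least 2 copies are in 0.52%. It is the core to which clock proteins and many other factors of their class bind. The Aqp3 window holds no E-box, so the members that varied together do not share it. The TATA box, searched as TATAAA on both strands like the motifs that follow, lies 38 bases before the Aqp3 start and is in 14.2% of promoters. The Cdx core, searched as TTTATG, lies 46 bases before it and is in 12.7%. These 2 matches in Aqp3 do not overlap. The steroid receptor motif TGTTCT is in 20.7% of promoters, the nuclear receptor motif AGGTCA in 16.2% and the motif GATAA in 26.5%, and these were not in the windows shown. The motifs were chosen with results known, and a match is a description of the letters only.

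Genes most like Aqp8 within groups, by r over the 20 samples, were the membrane mucin gene Muc1 (0.85), Ndrg2 (0.84), Tsc22d3 (0.83), Aqp3 (0.83), Pgap1 (0.82), Anxa1 (0.82), the clock gene Npas2 (0.82) and the alcohol dehydrogenase gene Adh1c (0.81). The most opposite were Epb41l4a (-0.83), the carbonic anhydrase gene Car9 (-0.83), Tmlhe (-0.83) and Gstk1 (-0.81). The median r over all probes was -0.01, with 13 probes over 0.8 and 5 under -0.8. These samples share arrays and normalisation, and the values are a description.

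The diet difference did not follow this likeness in each case. On average over birth status, high-fat diet minus chow was -0.27 in Aqp3, -1.13 in Muc1 (limma adjusted p = 0.0759), 0.02 in Ndrg2, -0.56 in Tsc22d3 and -0.08 in Npas2 (limma adjusted p = 0.951). Pgap1, at -0.84, was the only called gene of the 8 (limma adjusted p = 0.045). In control rats all 8 were lower on high-fat diet, from -0.05 in Aqp3 to -1.42 in Muc1. In IUGR rats Ndrg2, Anxa1 and Npas2 were higher on high-fat diet, by 0.32, 0.40 and 0.18, and the rest lower.

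Several genes were looked up after their values were seen. Scnn1a and Scnn1b, which encode subunits of the epithelial sodium channel, had r of 0.74 and 0.73 with Aqp8, and Scnn1g 0.11. The clock genes Bmal1, Cry1 and Dbp had 0.68, 0.55 and 0.44, while Per1, Per2, Per3 and Nr1d1 had -0.24, -0.21, 0.21 and -0.01. Per3 also lay close to background, at 4.58 to 5.13, and Dbp was low, at 4.84 to 5.82. Of these clock genes, Per2 was called on diet, with 0.94 on average (limma adjusted p = 0.0488). Fkbp5 and Sgk1, which like Tsc22d3 are induced by glucocorticoids, had r of -0.08 and 0.45, and the mineralocorticoid receptor gene Nr3c2 had 0.06. Hoxa13, the only distal colon marker that was tested, had 0.68. Its levels ran from 6.69 to 8.30 in RHFD, 5.73 to 8.55 in CHFD, 4.37 to 8.68 in RND and 6.08 to 8.97 in CND. Its diet difference was 0.12 (SE 0.69) in IUGR rats and -1.22 (SE 0.60) in control rats (limma adjusted p = 0.981 and 0.483). The part of colon segment in the Aqp8 values was not tested.

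The lists of other genes are set against the diet average, in which 4.28% of all tested probes were called and 1414 of 10193 had an unadjusted p under 0.05. Averaged over birth status, 1 of 24 tested genes of ion and water transport fell and 0 rose, with a median of -0.11, against a median of 0 over all probes. The 1 was Slc16a1, a transporter of short-chain fatty acids and lactate, which fell by 0.69 (limma adjusted p = 0.033). The potassium channel gene Kcnq1 had -0.63, Hsd11b2, which inactivates glucocorticoids, -0.56, and Clca4 -0.87, none passing. Of 14 tested genes of surface cell maturation, 0 were called by limma in either direction and 2 had an unadjusted p under 0.05, with a median of -0.08. Their summed level ran from 16.87 to 17.07 in RHFD, 16.74 to 17.13 in CHFD, 16.85 to 17.10 in RND and 16.78 to 17.30 in CND. The log2 sums of the surface list thus overlapped in all groups. These sums are weighted to the most abundant genes, such as Car1 and Guca2a, with mean CND levels of 15.01 and 14.99. They say little of weaker genes such as Alpi, with a mean CND level of 8.08.

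Of 14 tested genes of crypt and proliferation, 1 fell and 0 rose, with a median of -0.21. It was Cdk1, a kinase that drives cell division, which fell by 0.77 (limma adjusted p = 0.0394). Among 10 tested partners in glycerol handling, 1 fell and 0 rose, with a median of -0.08. It was Lipe, the hormone-sensitive lipase, which fell by 0.79 (limma adjusted p = 0.0057). Like the transport list, the crypt and glycerol lists had 1 call each, which is not set apart from the 4.28% over all probes. By limma, an unadjusted p under 0.05 was seen for 6 of 24 transport probes, 3 of 15 crypt probes and 4 of 10 glycerol probes. Over all tested probes it was seen for 1414 of 10193. These lists were chosen with earlier results known, so nothing is read from the unadjusted counts. Among 12 tested partners in hydrogen peroxide handling 0 were called by limma and 2 had an unadjusted p under 0.05, with a median of -0.08. Prdx2 came nearest with -0.29 (limma adjusted p = 0.0881).

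Within groups, the mean deviation of the ion and water transport list had r = 0.62 and rho = 0.66 with Aqp8 (permutation p = 0.00587 and 0.00265, adjusted p of r 0.0337 over 14 relations), and r was 0.52 without CHFD 22B and CND 32B. The glycerol list had r = -0.62 and rho = -0.57 (permutation p = 0.00486 and 0.0148, adjusted p of r 0.0337), and r was -0.57 without the same samples. The mean signal of the array had r = -0.59 and rho = -0.46 (permutation p = 0.00722 and 0.0485, adjusted p of r 0.0337), and r was -0.51 without them. The surface maturation list had r = 0.24 and rho = 0.17 (permutation p = 0.338 and 0.508, adjusted p of r 0.488), and r was 0 without them. The endothelial list had r = 0.52 and rho = 0.54 (permutation p = 0.0353 and 0.0304, adjusted p of r 0.124). In the other 9 relations r lay between -0.29 and 0.41, and none passed. Genes within a list differed, and in the ion and water transport list r with Aqp8 ran from -0.44 in Slc4a2 to 0.74 in Scnn1a. The part of array signal in the relations between genes was not tested.

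Markers of other cells moved with diet as well. Of 11 tested T and natural killer cell genes, 11 rose on high-fat diet on average, with a median of 1.5, and of 6 tested macrophage and dendritic cell genes 6 rose, with a median of 1.29. In control rats 8 and 4 of these were called, against 1.3% of all probes, and in IUGR rats 0 and 3, against 0.883%. Medians were 1.7 and 1.3 in control rats and 1.11 and 1.34 in IUGR rats. An unadjusted p under 0.05 by limma was seen in IUGR rats for 11 of 11 and 5 of 6, and for 974 of all tested probes. In RND minus CND the macrophage and dendritic cell genes had a median of 0.62, with 0 called. By limma, 5 of these 6 had an unadjusted p under 0.05 there, as did 1235 of all tested probes. For T and natural killer cells the log2 summed level was 11.60 to 11.92 in RHFD, 10.82 to 13.61 in CHFD, 9.53 to 11.56 in RND and 8.87 to 10.39 in CND. For macrophages and dendritic cells it was 11.30 to 12.09 in RHFD, 11.44 to 12.22 in CHFD, 10.56 to 11.45 in RND and 9.76 to 11.11 in CND. Within groups these lists had r of 0.02 and 0.20 with Aqp8. Of 8 tested epithelial markers 0 were called by limma and 0 had an unadjusted p under 0.05, with a median of 0.03, and their log2 summed level was 16.94 to 17.06 in RHFD, 16.87 to 17.14 in CHFD, 16.67 to 17.16 in RND and 16.92 to 17.07 in CND. Of 5 tested goblet cell genes, Clca1 rose by 1.37 and Spink4 fell by 2.22 (limma adjusted p = 0.00735 and 0.00691), and of 2 tested B cell genes 0 were called by limma, with 0 under 0.05 unadjusted.

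For the channels named for other cells, the markers of those cells were as follows. The 3 tested endothelial markers, Cldn5, Esam and Tie1, were not called by limma on diet and 0 had an unadjusted p under 0.05. Esam and the tested Tie1 probe were detected on 23 of 24 arrays, Cldn5 on 8 and Vwf on 3. Cdh5, Egfl7, Tek and a further Tie1 probe were detected on 0 of 24 arrays. Of 4 tested erythroid genes 0 were called by limma and 2, Hbb and Hba-a1, had an unadjusted p under 0.05. Their log2 summed level ran from 7.20 to 12.96 in RHFD, 8.30 to 10.64 in CHFD, 8.61 to 13.93 in RND and 10.70 to 14.21 in CND. Fabp4, a fatty acid carrier of fat cells and capillaries, fell by 2.72 on high-fat diet (limma adjusted p = 4.66e-05), the 1 called of 5 tested adipocyte genes. In the adipocyte list, Cidec and Lpl were detected on 24 of 24 arrays, Fabp4 on 23 and Cfd on 20. Adipoq, which defines fat cells, was detected on 8 of 24 arrays and Lep on 0. The part of these cells in the values of Aqp1 and Aqp7 was not tested.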

How the data were processed

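The 24 arrays were assigned to groups by their titles and labels, and arrays sharing a title number were treated as 1 sample, which gave 20 samples. Per the file headers, the deposited table gives every probe (22523) an average signal intensity and a detection p-value on every array. The deposited intensities are on a linear scale, and the deposited detection p-values compare a probe with the negative control beads. The authors' series matrix holds normalized intensities and served as an alternative. GenomeStudio is named in the submitters' processing notes, and its version is not given in the sources used here.

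Intensities were background corrected and quantile normalised with neqc (limma 3.58.1, R 4.3.3, statmod 1.5.0) with an offset of 16. Probes with a detection p under 0.05 on at least 6 arrays were kept, 10193 in all. Group and chip were fitted with limma, with the title number as a random block (correlation 0.812). The 7 comparisons were adjusted by Benjamini-Hochberg over all probes, with a threshold of 0.05. Current symbols came from RefSeq, and 7483 tested probes carry 1 symbol. The functions were tested on simulated data.

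Deviations within groups are sample values minus group and chip effects, with 100000 permutations within groups. The p-values of member pairs and of lists were added to the planned description. The number of arrays limits precision. Members, lists, motifs and the naming rule were chosen with earlier results of these data known. The rule names all members and other aquaporins, the 8 genes most like Aqp8 and the 4 most opposite, and up to 4 genes per list by p over the diet average. Groups share no title numbers, so samples are not paired. The alternatives are given at the end.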

Additional observations from a re-analysis of the deposited data

Results flagged for a closer look

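Aqp7 was 5.47 in CHFD 22B, against 4.66 in the next CHFD sample, and 5.82 in RND 33B, against 5.09 in the next RND sample. Both stood out by Dixon's test of the gap to the nearest sample. Aqp7 lay close to background, and 22B was on the only CHFD array where it was detected. The gap in CHFD is thus between a detected sample and undetected ones, whose spread is narrowed by the background. The test was made for 18 combinations of member and group, and chance alone gives about 1 in 20. CHFD 22B was also the highest CHFD sample in Aqp8 (9.48) and the lowest in Aqp1 (4.53), though neither of these stood out by the same test.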

How the results depend on the processing

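Over 10 alternatives the Aqp8 difference CHFD minus CND ran from -4.74 to -2.99, and leaving out each sample in turn gave -4.50 to -3.45. It missed the threshold on chip 2 alone (-3.19). RHFD minus RND ran from -3.19 to -1.92, and from -3.63 to -2.05 when samples were left out. The diet average ran from -3.50 to -2.45, and from -3.75 to -2.96 over samples left out, and missed the threshold on chip 2 alone (-3.19). Aqp8 was chosen with its diet difference known, so these ranges describe its size and support nothing. On chip 2 alone 0 members were called in CHFD minus CND and 0 in the diet average. Scaling arrays to equal medians called 2 members in the diet average, the added one being Aqp11 (-0.57). That scaling put the median of all probes at -0.10 for diet. Leaving out CND 18A or RND 39B also added Aqp11, and leaving out CND 32B added Aqp7, so the number called ran from 1 to 2. The Aqp8 difference RHFD minus CHFD was 0.73 on chip 1 alone and ran from -1.13 to 0.46 over samples left out. The other changes of sign were on chip 1 alone: Aqp3 in RHFD minus RND (0.05), the diet average (0.02), RND minus CND (-0.28) and the interaction (0.07), Aqp7 in RND minus CND (0.08), the IUGR average (0.02) and the interaction (-0.12), and Aqp1 in RHFD minus CHFD (-0.24). With samples left out, Aqp3 ran from -0.24 to 0.15 in CHFD minus CND and from -0.16 to 0.23 in RND minus CND, Aqp1 from -0.32 to 0.01 in RHFD minus RND and from -0.26 to 0.46 in RHFD minus CHFD, and Aqp7 from -0.17 to 0.05 in RHFD minus CHFD and from -0.03 to 0.36 in the interaction. The cause of these changes was not tested. The number of all probes called was 5 to 145 over the alternatives in CHFD minus CND (132 in the reported fit), 12 to 151 in RHFD minus RND (90) and 126 to 479 in the diet average (436), lowest on 1 chip alone, where fewer arrays were fitted. With samples left out it was 80 to 198, 8 to 110 and 246 to 536. Where only the groups of a comparison were fitted, the correlation of repeat arrays was estimated from those groups. The value from all arrays was set to stand in only where no estimate was obtained. RND and CND have no repeat arrays, so no block was fitted for them. No paired analysis was possible because no title number is shared between groups.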
